A study of Mus musculus with 2 samples.

Results

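Cytoskeleton, motor and sarcomere genes were followed in primary mouse osteoblasts, the cells that lay down bone matrix, with and without TGF-beta1. The members were taken by words in the gene names of the array: tubulin, myosin, kinesin, dynein, tropomyosin, troponin, stathmin, septin, calponin, profilin or the whole word actin, with names holding kinase or phosphatase left out. This gave 71 of 3757 probes, with 1 spot each on an array, and 64 of them were matched to a gene symbol. The words also took in 3 genes whose main known work lies elsewhere: the chromatin remodelling genes Hltf and Smarcc1, and Becn1, a gene of autophagy. The word stathmin took in 0 probes, and a stathmin gene that the array names otherwise is given apart from the members.

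Both groups were primary murine osteoblasts held in alphaMEM with only 0.2% FBS, which starves cells of serum, and each group was 1 sample on 1 array. The treated group received TGF-beta1 at 2 ng/ml for 24 h and the other group did not. No strain, age or genotype was given in the labels, and each sample carried the Cy3 dye. With 1 sample a group, no spread between replicates was measured and no test was run, so every difference is one between these 2 arrays. Values are the authors' normalized spot intensities, in arbitrary units, and they compare a probe between arrays, never a probe with another probe.

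A probe is called detected on an array where its signal exceeded 87.4, the limit the authors took from their brightest lambda phage control spot. The untreated array detected 24.6% of all probes and the treated array 23.1%. Of the osteoblast markers on the arrays, 5 of 5 were detected on at least 1 array, 4 of them lower by sign with TGF-beta1 as deposited. Of all 995 probes detected on at least 1 array, 50.4% were lower by sign. Bglap, Col1a2, Sparc and Alpl were detected on both arrays, with log2 ratios of -0.01, -0.05, -0.58 and 0.39, the first 2 close to equal. Ibsp, the bone sialoprotein gene, was detected on the untreated array alone, with 239.9 against 47.9, at least 2.74-fold lower when the dim signal is set at the lowest detected one. Of 48 blocks of spots, the median log2 ratio ran from -0.84 to 0.15 over all probes with positive signals, so that place on the array moved with the ratio. Over only the probes detected on both arrays, the block medians ran from -0.41 to 0.37. For the members that matter, a block-adjusted and a neighbour-adjusted log2 ratio therefore stand beside the deposited one. The first takes off the difference between the median of the probe's block and that of the array, and the second does so with the spots within 2 rows and 2 columns in the same block. Under each of them 2 of the 5 osteoblast markers were lower by sign. Both adjustments draw on all spots, most of them below the threshold, so dim spots can shift the value of a bright one. Block D4, which held Sparc, had a median of -0.73 over all its probes but -0.13 over those detected on both arrays. Sparc had a log2 ratio of -0.58 as deposited and 0.04 when block-adjusted. An adjusted value is thus a second reading, not a corrected one. The 8 lambda spots had log2 ratios with an SD of 0.20, a rough scale for a dim spot that is no error of any gene. In bulk RNA, fewer cells with a transcript and less of it per cell cannot be told apart.

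Microtubules are hollow polymers of alpha-tubulin and beta-tubulin pairs, along which kinesins and dyneins carry cargo. Actin filaments, made from actin monomers that profilin delivers, are pulled by myosins and steadied by tropomyosin and calponin, and septins form further filaments that scaffold the cortex. In muscle, troponin sits on the thin filament and switches contraction with calcium. TGF-beta is known in mesenchymal cells for inducing the smooth muscle form of actin and other contractile proteins, and osteoblasts rely on actin and microtubules for spreading, secretion and migration.

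Of the 71 members, 30 (42.3%) were detected on at least 1 array, against 26.5% of all probes. Both arrays detected 27 of them, the untreated array alone 3, the treated array alone 0, and neither array 41. The 30 members seen on the untreated array thus held all 27 seen on the treated array. Of all 995 probes detected on at least 1 array, 129 were detected on the untreated array alone and 71 on the treated array alone. Among the 27, 1 was at least 2-fold higher with TGF-beta1, where 1.51% of all 795 probes detected on both arrays were, and 3 were at least 2-fold lower, where 2.26% of all were. These were Septin3 on the higher side and Myo9b, Tuba4a and Tuba3a on the lower side. Together they were 14.8% of the 27, against 3.77% of all 795 either way. The members had a median log2 ratio of 0.01 against 0.03 over all 795, or of -0.09 against 0.05 when block-adjusted, and 18 of the 27 (66.7%) were within 1.5-fold, against 84.7% of all. At least 1.5-fold higher were 4 of the 27, where 7.17% of all were, and at least 1.5-fold lower were 5, where 8.18% of all were. Their log2 ratios had an SD of 0.65 across genes, where that of all 795 was 0.44.

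**Figure D1:**
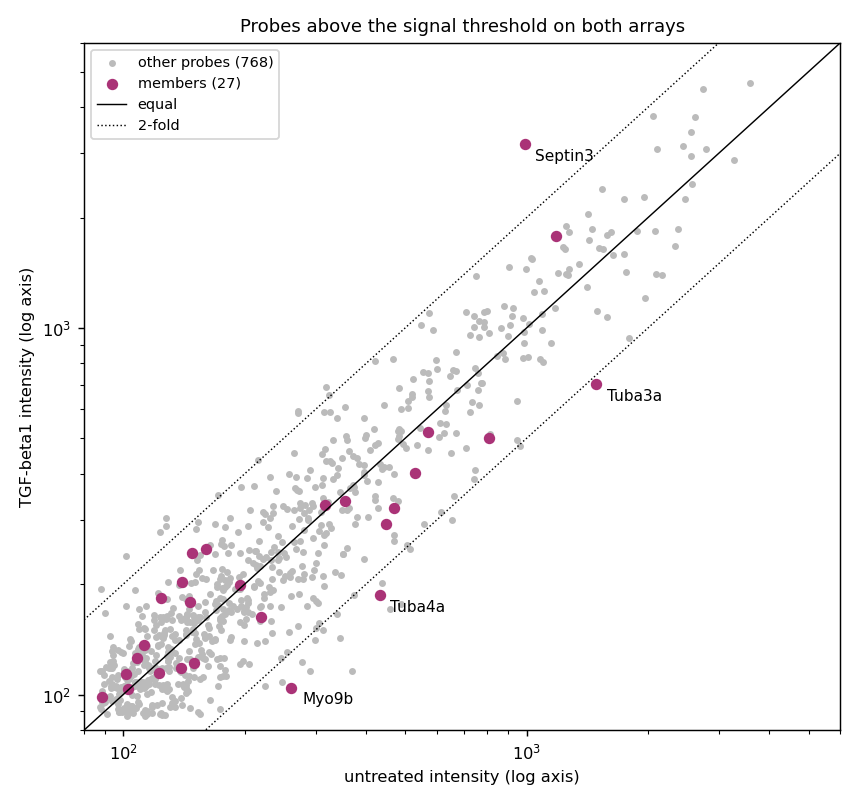
The intensity with TGF-beta1 is plotted against the untreated intensity on log axes for the 795 probes above the signal threshold on both arrays, with the 27 members in purple and 768 other probes in grey. The solid line marks equal signals and the dotted lines 2-fold, and of the members Septin3 lies above the upper dotted line and Tuba3a, Tuba4a and Myo9b below the lower one.

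Septin3 had the highest ratio of the members. It encodes a septin best known from neurons, a GTP-binding protein that assembles into filaments with other septins. Its intensity was 989 untreated and 3170 with TGF-beta1, which is 3.21-fold higher, a log2 ratio of 1.68. The block-adjusted log2 ratio was 1.45 and the neighbour-adjusted one 1.32. Septin3 lay in block G1, where the median log2 ratio of the 22 probes detected on both arrays was 0.34 and 2 of them were at least 2-fold higher, Septin3 and Insl5, the latter named here after its value was seen. The 10 neighbouring spots ran from -0.28 to 0.91, none of them as far from equal as Septin3. The other 3 septins on the array were below the threshold on both arrays. Septin9, the widely expressed septin, had intensities of 36.5 untreated and 45.2 treated, Septin1 of 39.3 and 38.8, and Septin4 of 10.3 and 5.55. The high ratio was thus seen in 1 of 4 septins, and for the other 3 the arrays give no usable ratio. Of 6 neuron markers on the arrays 1 was detected, the synaptic vesicle protein Syn1, with 786 untreated and 1109 treated, a log2 ratio of 0.50 that was 0.94 when block-adjusted and 0.95 when neighbour-adjusted. The summed intensity of the 6 was 993 and 1274, a sum that follows its brightest spot, Syn1, and is no measure of neuron content. The other 5, all below the threshold, summed to 208 untreated and 165 treated. By sign 4 of these 5 were lower, as were 65.9% of all probes below the threshold on both arrays with positive signals. The part of these markers in the Septin3 value was not tested.

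The detected alpha-tubulins and the 1 beta-tubulin probe differed in direction. Of the 5 alpha-tubulins on the array 4 were detected on both arrays, and these 4 were all lower with TGF-beta1, with a median log2 ratio of -0.75. The 1 beta-tubulin was higher. By sign alone, of the 995 probes with a detected signal on either array, 50.4% were lower and 49.6% higher. The promoters of the alpha-tubulins past 2-fold and of the beta-tubulin are shown because these members of 1 polymer differed in direction, and that of Myo9b because it had the lowest ratio of the detected members. Each window is RefSeq sequence from 250 bases before to 50 after the gene's start, in the direction of the gene. Capitals mark CAGAC or its reverse complement GTCTG, a short element known to bind Smad proteins, which carry the TGF-beta signal to the nucleus.
Tuba3a, GRCm38.p6 chr6:125286032-125286331, minus strand: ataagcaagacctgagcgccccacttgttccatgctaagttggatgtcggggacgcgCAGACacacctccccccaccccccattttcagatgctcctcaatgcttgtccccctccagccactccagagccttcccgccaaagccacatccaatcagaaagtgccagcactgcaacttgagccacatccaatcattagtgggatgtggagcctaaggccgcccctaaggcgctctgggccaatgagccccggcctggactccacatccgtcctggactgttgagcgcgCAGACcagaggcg
Tuba4a, GRCm38.p6 chr1:75219245-75219544, minus strand: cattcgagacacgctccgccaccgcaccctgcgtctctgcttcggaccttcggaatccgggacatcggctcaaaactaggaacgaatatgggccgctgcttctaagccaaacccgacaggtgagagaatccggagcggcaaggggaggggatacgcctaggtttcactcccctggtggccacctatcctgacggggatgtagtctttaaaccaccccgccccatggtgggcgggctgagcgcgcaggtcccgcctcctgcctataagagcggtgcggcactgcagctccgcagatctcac
Tubb5, GRCm38.p6 chr17:35838252-35838551, minus strand: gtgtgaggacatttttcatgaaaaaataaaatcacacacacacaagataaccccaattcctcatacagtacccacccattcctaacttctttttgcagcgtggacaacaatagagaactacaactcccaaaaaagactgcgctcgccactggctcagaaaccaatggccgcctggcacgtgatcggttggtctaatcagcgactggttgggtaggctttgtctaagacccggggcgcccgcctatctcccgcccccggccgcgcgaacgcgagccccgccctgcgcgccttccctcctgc
Myo9b, GRCm38.p6 chr8:71272464-71272763, plus strand: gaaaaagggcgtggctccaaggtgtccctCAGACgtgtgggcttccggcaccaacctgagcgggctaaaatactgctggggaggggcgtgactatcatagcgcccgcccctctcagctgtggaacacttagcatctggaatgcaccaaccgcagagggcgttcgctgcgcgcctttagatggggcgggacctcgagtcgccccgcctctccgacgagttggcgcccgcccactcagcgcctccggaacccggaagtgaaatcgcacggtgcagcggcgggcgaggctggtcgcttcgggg
The Tuba3a window held 2 matches, the Myo9b window 1 and the windows of Tuba4a and Tubb5 0. Such a match is common: 49.6% of all 32851 promoter windows hold at least 1, and so do 32 of the 70 windows of the 54 member genes found in the table (45.7%). The matches describe the letters of these windows and nothing more.

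Tuba3a, named tubulin alpha 3 on the array and known from testis, had 1485 untreated and 702 treated, 2.12-fold lower. Tuba4a, an alpha-tubulin known for lacking the genetically encoded C-terminal tyrosine, had 432 and 186, 2.32-fold lower. Their log2 ratios were -1.08 and -1.21, the only alpha-tubulins past 2-fold among the 4 detected. Tuba8, an alpha-tubulin of restricted expression, had 219 untreated and 163 treated, and so a log2 ratio of -0.43. Tuba1c, named tubulin alpha 6 and widely expressed, had 568 and 519, a log2 ratio of -0.13, close to equal. Tuba1a, the main alpha-tubulin of developing neurons, was below the threshold on both arrays with 80.5 and 50.4. Tubb5, the most widely expressed beta-tubulin, had 148 untreated and 244 treated, 1.65-fold higher. The remaining members with tubulin in their names, delta-tubulin (Tubd1) and the folding cofactor Tbca, were below the threshold on both arrays. Over the 5 detected tubulins the median log2 ratio was -0.43. Genes of the alpha-tubulin family are close in sequence, probe sequences were not used, and how far a spot read its relatives was not tested.

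The spots of Tuba3a, Tuba4a and Tuba1c stood side by side in row 3 of block K1. The block had a median log2 ratio of 0.01 over its 23 probes detected on both arrays, and 4 of these were at least 2-fold lower, Tuba3a, Tuba4a and 2 genes outside the members, Vmn2r122 and Fth1, named here after their values were seen. Within 2 rows and 2 columns, 13 of the 24 neighbours of Tuba3a and 15 of the 24 of Tuba4a were lower by sign. In each set of neighbours 1 was at least 2-fold lower, and that was the other of the 2 tubulins. The block-adjusted and neighbour-adjusted log2 ratios of Tuba3a were -1.04 and -1.12, and those of Tuba4a were -1.17 and -1.18. Tuba8, in block K2, had -0.49 and -0.45, Tuba1c -0.09 and -0.06, and Tubb5, in block K3, 0.65 and 0.64. Each detected tubulin thus kept its direction under both adjustments.

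**Figure D2:**
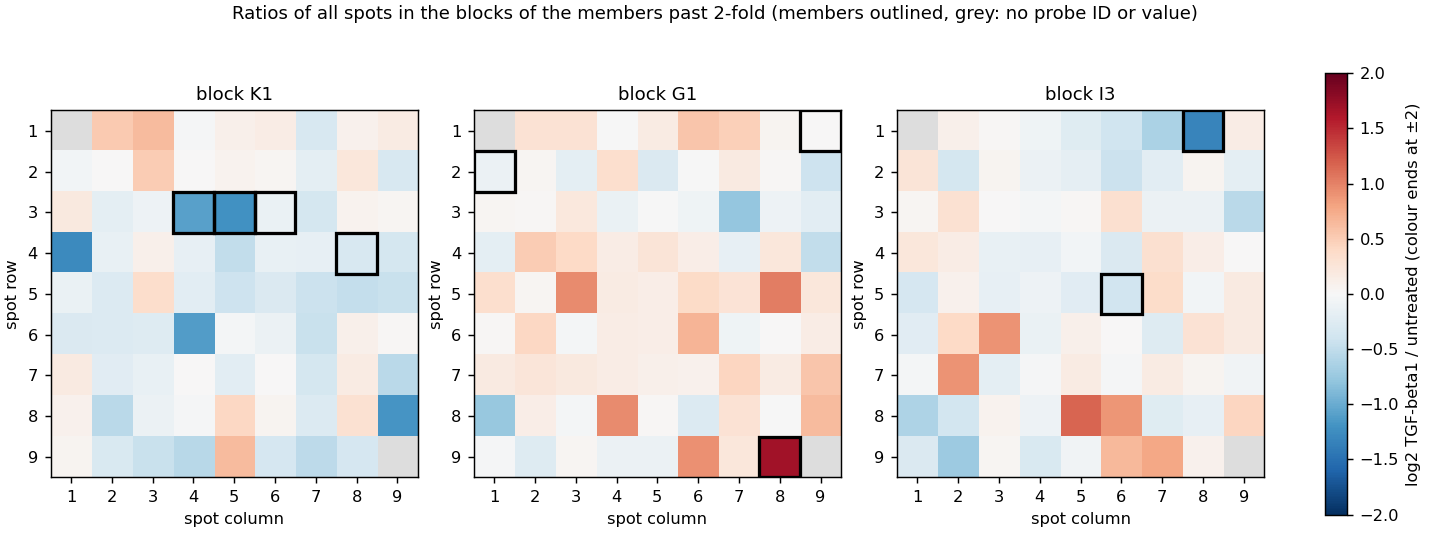
Each square is a spot of blocks K1, G1 and I3, coloured by the log2 of the TGF-beta1 over the untreated intensity, with members outlined and spots without a probe ID or a value in grey. In K1 the adjoining spots of Tuba3a and Tuba4a (-1.08 and -1.21) stand beside that of Tuba1c (-0.13), in G1 Septin3 (1.68) lies in the last row, and in I3 Myo9b (-1.33) lies in the first.

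The count of microtubule motors lower by sign moved with the adjustment for place, through Kif21a and Dnal4, both close to equal as deposited. Of 17 kinesin and dynein members 6 were detected, 3 higher and 3 lower, with a median log2 ratio of -0.04 when the 1 detected on the untreated array alone was set at its bound. After block adjustment 5 of the 6 had values below 0, as they did after neighbour adjustment. Of all 995 probes detected on at least 1 array, 501 were lower as deposited, 476 when block-adjusted and 469 when neighbour-adjusted. Over only the motors detected on both arrays, the median log2 ratio was 0.01 as deposited. It was -0.22 when block-adjusted and -0.13 when neighbour-adjusted. Klc2, a light chain that ties cargo to conventional kinesin, had 449 untreated and 291 treated, 1.54-fold lower. Its relative Klc1 was detected on the untreated array alone, with 103 against 78.4, which is at least 1.17-fold lower. Kif5c, a heavy chain of conventional kinesin, had 122 and 115, a log2 ratio of -0.10. Both light chains and this heavy chain were thus lower by sign, while the other heavy chain with a probe, Kif5a, was below the threshold on both arrays.

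Kif2a, a kinesin that takes tubulin off microtubule ends, had 124 untreated and 184 treated, 1.48-fold higher. Kif21a, a kinesin that slows microtubule growth, had 103 and 104, a log2 ratio of 0.01. Dnal4, a light chain of axonemal dynein, had 316 and 329, a log2 ratio of 0.06. Block-adjusted and then neighbour-adjusted, Kif2a had 0.31 and 0.36, Klc2 -0.88 and -0.95, and the small values of Kif21a and Dnal4 turned to -0.22 and -0.05 and to -0.17 and -0.13. The block of Kif2a, Kif5c and Klc2, F2, had a median log2 ratio of 0.13 among probes detected on both arrays. The cytoplasmic dynein chains Dync1i1, Dync1i2 and Dynll1 and the mitotic kinesins Kif4 and Kif20a were below the threshold on both arrays.

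The detected actins and actin regulators differed by less than 1.5-fold with 1 exception. Acta2, the smooth muscle actin that TGF-beta is known to induce in fibroblasts, had 146 untreated and 179 treated, 1.23-fold higher. Beta-actin, which the array carried as a housekeeping gene, had 528 and 402, 1.31-fold lower. The other cytoplasmic actin, Actg1, was detected on the untreated array alone, with 96.6 against 77.4, at least 1.10-fold lower. The smooth muscle actin was thus higher by sign and both cytoplasmic actins lower. Cnn1, calponin 1 of smooth muscle, had 108 and 126, a log2 ratio of 0.22. Pfn1, profilin 1, had 150 and 122, a log2 ratio of -0.30. These 4 kept their direction when adjusted by block and by neighbours, where Acta2 had 0.44 and 0.39, beta-actin -0.25 and -0.34, Cnn1 0.57 and 0.35, and Pfn1 -0.44 and -0.41.

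The exception was Fscn3, a fascin of testis that bundles actin, with 161 untreated and 250 treated, 1.56-fold higher. Fscn1, the fascin of migrating cells, was below the threshold on both arrays with 51.6 and 33.0. Arpc1a, a subunit of the Arp2/3 complex that branches actin filaments, had 113 and 137, a log2 ratio of 0.28 that was 0.07 when neighbour-adjusted. Arpc3, another subunit, was below the threshold on both arrays, as were the coronins Coro1a, Coro1b and Coro1c, the capping protein Capg and calponin 2, Cnn2. Smarcc1, taken in by its name only, had 139 and 118, a log2 ratio of -0.24, and Hltf was below the threshold on both arrays. Of the 17 members matched through the word actin, 6 were detected, 3 higher and 3 lower.

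Of 13 genes for TGF-beta-induced contractile proteins in a list chosen with earlier results known, 6 had a probe and 2 were detected, Acta2 and Cnn1, both higher by sign and under 1.5-fold. Myh11, the smooth muscle myosin heavy chain, had 48.4 untreated and 37.9 treated, and Tpm2, beta-tropomyosin, had 80.2 and 84.7, so both lay below the threshold on both arrays. Actc1, Acta1, Actg2, Tpm1, Myl9, Myh9 and Tubb3, which were to be named whatever their values, had 0 matched probes, so they were not analysed here.

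Myo9b had the lowest log2 ratio of the detected members, -1.33. It encodes an unconventional myosin, a motor on actin filaments outside the class that builds muscle thick filaments. Its intensity was 261 untreated and 104 treated, 2.51-fold lower, so the treated signal stood only a little above the threshold of 87.4 and would not be detected at a threshold 1.5 times as high. Of the 8 probes of its block, I3, that were detected on both arrays, Myo9b alone was at least 2-fold lower and the median was 0.31, while the 11 neighbouring spots had a median of -0.19. The block-adjusted log2 ratio was -1.39 and the neighbour-adjusted one -1.24.

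The other detected myosins were higher by sign or near equal. The probe named myosin If, a class I myosin of immune cells, had 140 untreated and 203 treated, 1.45-fold higher. Myo7a, the myosin of hair cells and retina, had 88.7 and 98.6, a log2 ratio of 0.15, with the untreated signal barely above the threshold. Myo15, another myosin of hair cells, had 194 and 199, a log2 ratio of 0.03. Becn1, whose array name describes a myosin-like protein, had 470 and 322, 1.46-fold lower, a log2 ratio of -0.55 that was -0.34 when block-adjusted and -0.15 when neighbour-adjusted. Of 13 members matched through myosin, 5 were detected on both arrays. The 8 below the threshold on both arrays included the muscle light chains Myl2 and Mylpf and the transport myosin Myo5a.

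Of the troponins, which belong to striated muscle, 5 of 7 were detected. Both calcium-binding troponin C subunits were lower by sign on the treated array. Tnnc2, of fast skeletal muscle, had 808 untreated and 502 treated, 1.61-fold lower. Tnnc1, of heart and slow muscle, was detected on the untreated array alone with 109 against 73.0, at least 1.25-fold lower as deposited. On the log2 scale this bound was -0.32, and it was -0.077 when block-adjusted and 0.0013 when neighbour-adjusted, which leaves no bound. Of the 3 tropomyosin-binding troponin T subunits 2 were detected, both higher by sign. Tnnt2, of heart, had 1181 and 1779, 1.51-fold higher, and Tnnt3, of fast skeletal muscle, had 102 and 114, a log2 ratio of 0.16 that was 0.09 under both adjustments. The value of Tnnt3 lay within the rough scale of 0.20 set by the lambda spots, which is no error of this gene. Of the inhibitory troponin I subunits, Tnni2 of fast skeletal muscle had 355 and 337, a log2 ratio of -0.07. Tnni3 of heart was below the threshold on both arrays with 81.0 and 38.2, and Tnnt1 of slow muscle with 31.4 and 38.1.

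Of the troponins, Tnnc2 and Tnnt2 were past 1.5-fold as deposited, in opposite directions. Tnnt2 was only just past it. Its log2 ratio of 0.59 was 0.40 under quantile normalization and 0.42 under loess, less than 1.5-fold. Tnnc2 stayed past 1.5-fold under these settings, but not by block or by neighbours. Adjusted by block and by neighbours, Tnnc2 had -0.52 and -0.37 and Tnnt2 0.57 and 0.62, while Tnni2 turned to 0.17 and 0.24. Tnnc1, at -0.58 by its measured log2 ratio, had -0.34 and -0.26. Of 12 skeletal muscle markers 6 had a probe and 4 were detected, the troponins Tnnc2 and Tnnt3, the calcium store protein Casq1 and the muscle regulator Myod1. Myod1 had 646 untreated and 739 treated and Casq1 199.9 and 140.3. Among those detected 2 were higher and 2 lower by sign. The summed intensity of the 6 was 1829 untreated and 1563 treated, and without Tnnc2, itself a troponin, that of the other 5 was 1021 and 1060. Such sums follow their brightest spots and are no measure of muscle content. The part of these markers in the troponin values was not tested. Neither the troponin nor the marker signals show by themselves that muscle cells were present.

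**Figure D3:**
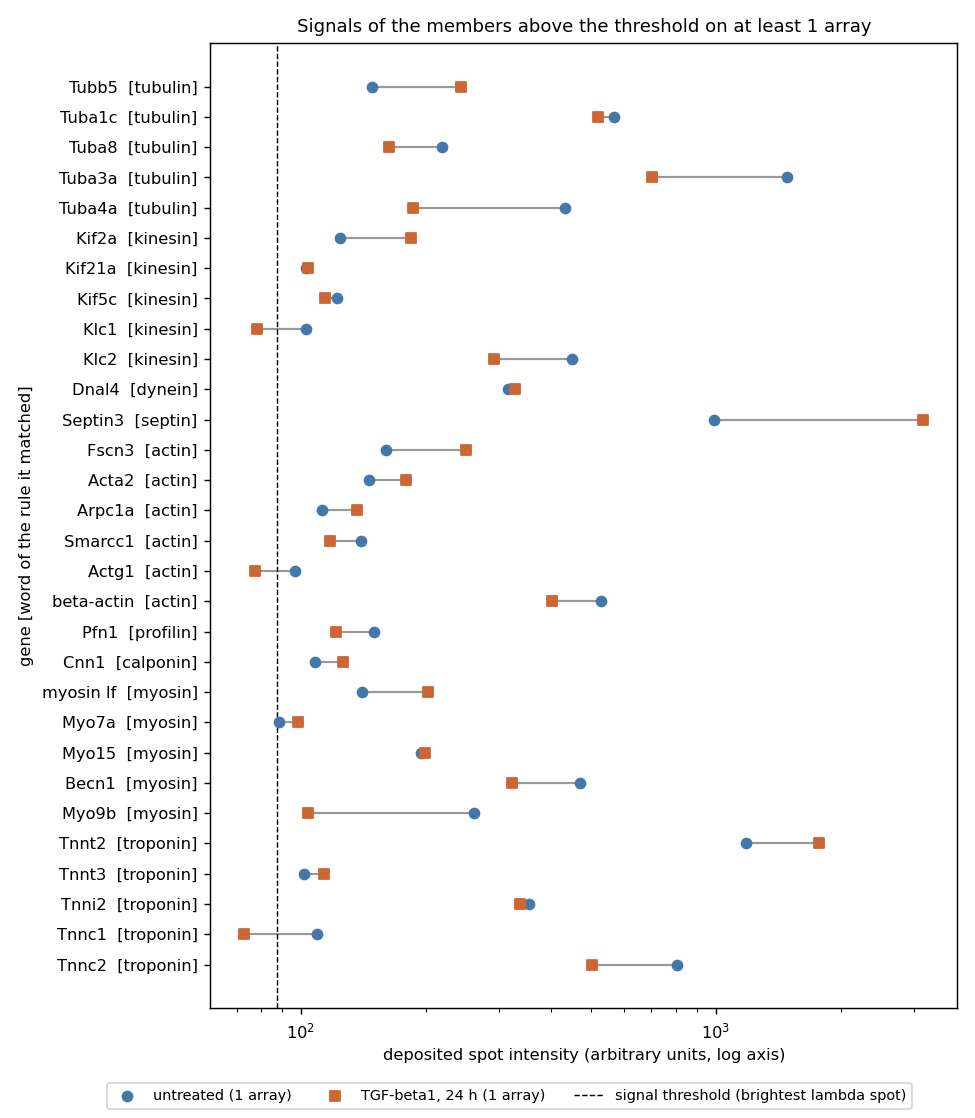
The deposited intensity of each of the 30 members detected on at least 1 array is shown on a log axis, untreated as circles and with TGF-beta1 as squares, with the word of the rule in brackets and the signal threshold of 87.4 as a dashed line. Septin3 moves furthest to the right, Tuba3a, Tuba4a and Myo9b furthest to the left, and the treated values of Klc1, Actg1 and Tnnc1 fall below the dashed line.

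The 41 members below the threshold on both arrays had intensities from 2.84 to 84.7. By sign 28 of them were lower and 13 higher, and of all probes of this kind with positive signals 65.9% were lower. Their median log2 ratio was -0.11, against -0.13 for all such probes. No ratio of these members is read further.

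Other cytoskeleton genes came from lists that the rule did not use. Of 36 genes for actin dynamics and binding on the arrays, 8 of them also members, 10 were detected, 4 higher and 6 lower, and 0 passed 2-fold among the 6 detected on both arrays. Detected on the untreated array alone, the neuronal actin binder Dbn1 was at least 1.30-fold lower and the microvillus protein Vil1 at least 1.24-fold lower. Add1, an adducin that caps actin, had a log2 ratio of -0.37, which was -0.01 when block-adjusted and 0.13 when neighbour-adjusted. Its block, B1, had a median of -0.46 over all its probes but 0.09 over those detected on both arrays.

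Of 33 genes in a list for intermediate filaments 7 had a probe and 4 were detected, 3 higher and 1 lower as deposited and 2 each way when adjusted. The list does not hold every such gene on the arrays: Krt6b, with a log2 ratio of -0.54, and Krt71, with 0.35, were outside it and are named here after their values were seen. The keratin Krt12 of the cornea was the 1 past 2-fold, with 123 untreated and 277 treated, and Krt16, a keratin of stressed skin, had a log2 ratio of 0.52. Krt6a had -0.40, and Nes, the nestin of progenitor cells, had 0.05. Of 13 microtubule-associated proteins 3 were detected, and all 3 were close to equal: the dynactin subunit Dctn1 had a log2 ratio of -0.10, the plus-end protein Clip2 0.11 and the microtubule stabilizer Map6 0.12. The 1 detected gene of 4 in the focal adhesion list, the fibronectin receptor chain Itga5, had 0.16. Of 12 sarcomere and muscle genes outside the rule 4 were detected, 3 higher and 1 lower. Ldb3, which anchors the Z-disc, had 903 untreated and 1469 treated, 1.63-fold higher, and the calcium pump Atp2a1 had a log2 ratio of 0.41. Stmn3, the stathmin gene whose array name lacks that word, was 2.34-fold higher, with 102 untreated and 238 treated. Its log2 ratio of 1.23 was 1.61 when block-adjusted and 1.92 when neighbour-adjusted.

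Most members kept their direction under quantile normalization, loess and the adjustments for place. Of the 30 detected members, 0 changed sign under quantile normalization or loess. Division by the median or by the total signal also turned 0, but each moves all log2 ratios by the same small amount. Kif21a, for instance, went from 0.013 to 0.022 and 0.0025. An offset added to both signals cannot change a sign, so its 0 says nothing on direction. When block-adjusted, 4 changed sign, Dnal4, Kif21a, Myo15 and Tnni2, and the same 4 did when neighbour-adjusted. By sign, the 14 higher and 16 lower members thus became 12 and 18 under either adjustment, while of all 995 probes detected on at least 1 array 501 were lower as deposited, 476 when block-adjusted and 469 when neighbour-adjusted. The deposited log2 ratios of these 4 lay between -0.07 and 0.06. That is inside the rough scale of the lambda spots, which is one for dim spots and no error of these genes. Septin3, Myo9b, Tuba3a and Tuba4a stayed past 2-fold under each of these settings, except that with the offset the 3 lower genes had log2 ratios of -0.83, -0.99 and -0.90 for Myo9b, Tuba3a and Tuba4a. On either side of the 2-fold limit the nearest members were Tuba3a at 2.12-fold and Tubb5 at 1.65-fold, a gap with 0 members in it.

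**Figure D4:**
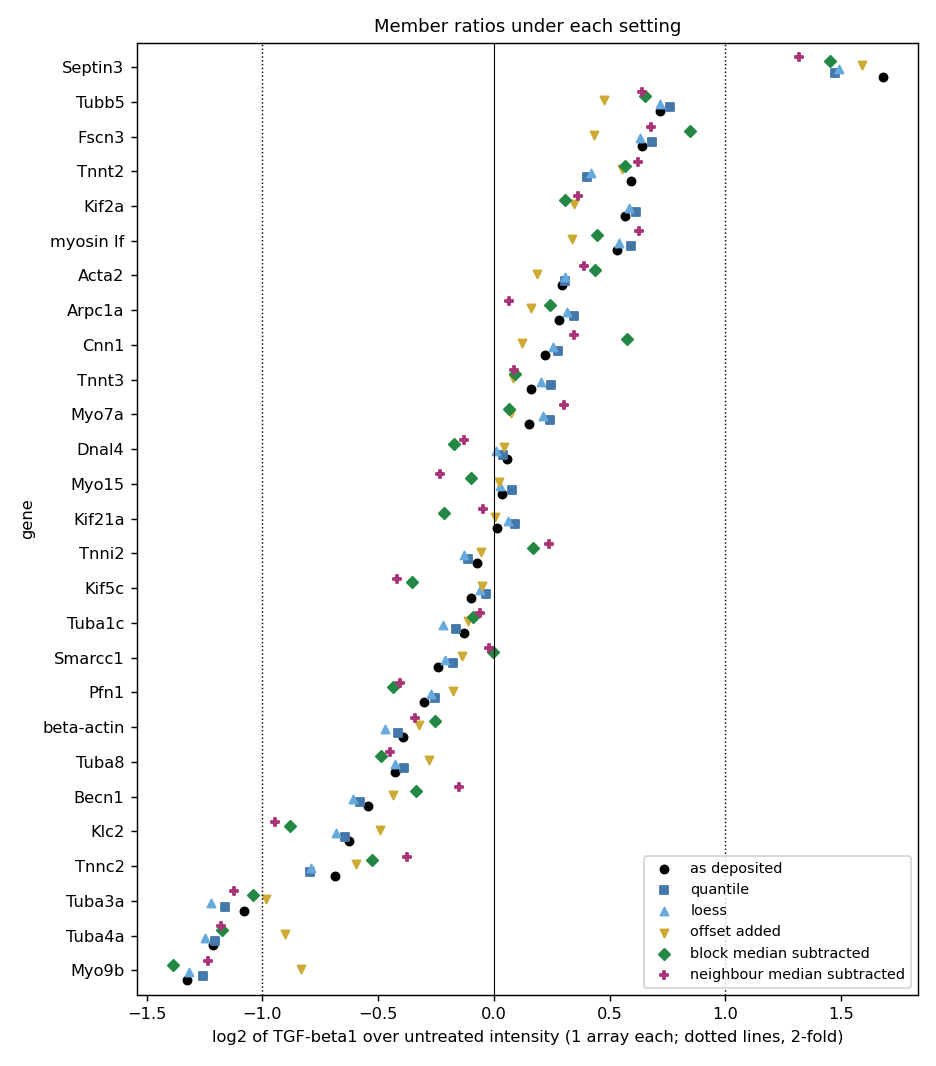
The log2 of the TGF-beta1 over the untreated intensity is shown for the 27 members detected on both arrays as deposited and under 5 other settings, 1 symbol each, with dotted lines at 2-fold. The symbols of Septin3 all lie right of the upper dotted line, from 1.32 to 1.68, and those of Tuba3a, Tuba4a and Myo9b lie left of the lower one except when an offset was added.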

How the data were processed

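Per the labels' protocols, total RNA was extracted with TRIZOL and cDNA was labelled with the BD Atlas kit, 1 Cy3 sample per array. The deposited intensity values of 3757 probes are on a linear scale. Per the file headers, the authors normalized them by a method named global in Atlas Iris 1.01, software for the array type Atlas Glass Mouse 3.8. For the background method and the scanner, the sources used here give nothing. The authors' deposited ratio is treated over untreated, and it equalled the quotient of the intensities within 0.0001 for 3754 of 3754 probes that have one. Gene names were joined to probe IDs by row order, since all 3774 rows of both files held equal ratios. The 17 spots without a probe ID were left out. In 8 sheets, 16 columns of per-sample values matched no sample label and were not used.

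The value of a gene is its treated over its untreated intensity as a log2 ratio, with nothing added. Detected means above 87.4 on an array. The bound for a gene detected on 1 array is its bright signal over the higher of its dim signal and the lowest detected signal on the other array, 87.5 untreated and 87.6 treated. Symbols came from RefSeq (GRCm38.p6, names and promoter windows only) through the unversioned accession, for 3597 probes, none with several.

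The alternatives were loess with a span of 0.4 (statsmodels 0.14.6), an offset of 96.7 (the 10th percentile of detected signals), quantile normalization, scaling by the total signal or by the median of the probes detected on both arrays, block and neighbour medians (within 2 rows and 2 columns of a block), other thresholds and other choices of members. The adjustment for place was tested on simulated data. All members with a signal above the threshold are named, of each list up to 4 detected genes, and some genes whatever their values. A gene that this rule also took is not reported here. Members, lists and alternatives were chosen with earlier results of these data known.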

Additional observations from a re-analysis of the deposited data

How the results depend on the processing

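The counts of 1 member at least 2-fold higher and 3 at least 2-fold lower were the same under quantile normalization, loess and both divisions. They were also the same under block medians and neighbour medians. The deposited ratio is the quotient of the same signals, and no other choice of members left out any of these genes. Neither could therefore change the counts. With a signal threshold 1.5 or 2 times as high, Septin3 stayed and 2 were lower, since the treated signal of Myo9b lay under it. With the offset of 96.7, 0 were at least 2-fold lower, since an added constant draws ratios toward equal. Among all probes detected on both arrays, 1 was then at least 2-fold higher and 3 at least 2-fold lower. With no filter on dim probes, 5 of 71 were lower. For this count and those at the higher thresholds no share over all probes is given, so they are not read as results on the members. At 1.5-fold in place of 2-fold, 4 were higher and 5 lower, against 7.17% and 8.18% of all probes, and at 3-fold 0 were lower. The 4 included Tnnt2 at 1.51-fold, which fell under 1.5-fold with quantile normalization or loess. The median log2 ratio of 0.01 was -0.26 among the 12 members above a threshold 2 times as high, and from -0.11 to 0.04 under the other alternatives. It was also below 0 when block-adjusted or neighbour-adjusted, at a threshold 1.5 times as high, and with no filter on dim probes. By sign, the 14 higher and 16 lower became 12 and 18 when block-adjusted or neighbour-adjusted, 9 and 10 at a threshold 2 times as high and 27 and 44 with no filter. Of all probes below the threshold on both arrays with positive signals, 65.9% were lower by sign. The bound of Tnnc1, -0.32 on the log2 scale, was -0.077 when block-adjusted and 0.0013 when neighbour-adjusted, which leaves no bound. Leaving out Hltf, Smarcc1 and Becn1, an alternative added after the data were seen, left 14 higher and 14 lower. No paired analysis was possible because each group held 1 sample, and for the same reason no replicate could be left out. Signals near 87.4 lie close to those of the control spots.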
